A study of Mus musculus with 24 samples.

Results

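The nuclear genes of the respiratory chain were followed in RNA of astrocytes sorted from 4 brain regions of mice with or without a Cre driver meant to delete Nfia, a transcription factor gene. The members were all gene names in the deposited tables that start with Nduf, Uqcr, Cox4 to Cox8 or Atp5, with Sdha to Sdhd, which gave 92 of 24421 names. Complex I had 44 of them (7 core subunits, 29 accessory subunits and 8 assembly factors), complex II 4, complex III 8, complex IV 20 and complex V 16. Ndufa4 and Ndufa4l2 were counted with complex IV, where the Ndufa4 protein sits, and Atp5sl with the complex I assembly factors. From C57BL6 mice aged 20 weeks, brainstem, cortex, hippocampus and olfactory bulb were dissociated and fluorescent cells were sorted. Each region had 3 control libraries, of genotype NFIAfl/fl; Aldh1l1-GFP, and 3 libraries labelled knockout, of genotype NFIAfl/fl; Aldh1l1-CreER; Aldh1l1-GFP. All 8 groups thus carry the floxed Nfia allele and the reporter that makes Aldh1l1-expressing cells, mainly astrocytes, fluorescent. The groups differ by CreER, a Cre recombinase that acts after tamoxifen and is driven here from the same astrocyte promoter. Dose and timing of induction are not given in the sources used here, and no label says which libraries came from the same animal, so that p-values measure the spread between libraries, part of which may be technical.

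The respiratory chain sits in the inner mitochondrial membrane. Complexes I and II pass electrons from NADH and succinate to coenzyme Q, complex III passes them on to cytochrome c, and complex IV, cytochrome c oxidase, gives them to oxygen. Complexes I, III and IV pump protons, and complex V, the ATP synthase, lets them flow back through its Fo ring and makes ATP in its F1 head. A few subunits of all but complex II are encoded by mitochondrial DNA. The others are nuclear, and several subunits of complexes IV and V have paralogous genes with tissue-restricted use. Astrocytes are known for active glycolysis and also have mitochondria with a full respiratory chain.

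Depth ranged from 1090777 to 24297573 reads per library. Nfia itself was higher in the libraries labelled knockout, where it stood between 7457 and 13264 normalised reads against 3294 to 7428 in controls, and in each region every library labelled knockout lay above every control. The counts cover the whole gene, so they do not check the deleted part, and "labelled knockout" is used throughout. The astrocyte markers Slc1a2 and Aqp4 were at 62525 or more and 5159 or more in every library. Astrocyte marker levels were not uniform. The sum of 10 such markers ran from 107460 to 305820 in brainstem controls and from 496170 to 681250 in cortical controls. Slc1a3 stood at 1977 in brainstem control 1. In hippocampus Aldh1l1 stood at 551 to 926 in controls and 1264 to 1435 in those labelled knockout, and Gfap at 3406 to 4035 against 881 to 1619. The summed level of 10 choroid plexus markers (Ttr, Folr1, Kl, Prlr, Enpp2, Clic6, Kcnj13, Otx2, Aqp1 and Slc4a5) varied widely: it was 2568 to 3120 in all 6 olfactory bulb libraries, 107830 to 223690 in hippocampal controls but 3592 to 9419 in hippocampus labelled knockout, and 77854 to 372480 in brainstem controls. Rn45s, a ribosomal RNA precursor, took 13.5% to 25.6% of reads in cortex and brainstem and 0.966% to 3.33% in olfactory bulb and hippocampus, except olfactory bulb labelled knockout 3 at 20.8%. Hippocampal control 2 stood low for every complex: its mean log2 level over the 88 tested members was 7.93, beside 8.36 and 8.48 in the other 2 hippocampal controls. Names that start with mt- numbered 0, so the mitochondrially encoded subunits are not analysed here.

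As a group the members were expressed far above the typical gene. Their median level, averaged over the 24 libraries and given per kilobase of the annotated transcript, was 345 normalised reads per kilobase, against 36.8 for all tested genes. By complex the median per kilobase was 244 for complex I, 355 for complex II, 472 for complex III, 761 for complex IV and 745 for complex V. The highest per kilobase were Atp5b, the catalytic beta subunit of the ATP synthase, at 3341, and 3 small subunits of cytochrome c oxidase, Cox8a at 2830, Cox7c at 2384 and Cox6a1 at 1819. Of the 92 members, 81 reached a level of 20 in all 24 libraries. In 4 members it was not reached in the 3 libraries required for a test: Cox6a2, the muscle form of Cox6a, with 68 reads in all, Ndufa4l2 with 46, and Cox8c and Ndufs5, which are listed at 0. Ndufs5 is a subunit of complex I that every cell uses. Of its 50-base words 21.7% also occur in another annotated gene, and the part of shared sequence in its 0 was not tested. Tested members with low levels were Cox4i2, Cox7a1 and Cox8b, which reached 20 in 4 libraries each, Cox7b2 (8 libraries), Ndufaf6 (16), Cox6b2 (21) and Atp5sl (23). A gene that passes through the groups where it is high had to differ somewhere. This holds for Cox8b, which reached 20 in 4 controls and in no library labelled knockout, and for Cox7a1, where 3 of the 4 libraries are the brainstem controls. Where either gene was called by genotype, for a region against the average of the others or across the 4 regions, the result without a filter on low values is therefore also given. That fit takes in 19288 genes.

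Levels of the complexes differed modestly across the 8 groups, and the share of reads was lowest in cortex and highest in brainstem controls. The 92 genes took 0.952% ± 0.0156 (SD, n = 3) of reads other than Rn45s in olfactory bulb controls, 0.936% ± 0.128 in hippocampal, 0.837% ± 0.0703 in cortical and 1.09% ± 0.121 in brainstem controls. In the libraries labelled knockout the share was 0.980% ± 0.0269, 0.881% ± 0.0401, 0.834% ± 0.0440 and 0.971% ± 0.138 (SD, n = 3) in the same order. Complex I had mean log2 levels of 7.79 in olfactory bulb controls, 7.73 in hippocampal, 7.66 in cortical and 7.80 in brainstem controls, and libraries of 1 hippocampal group ranged from 7.45 to 7.95. Complex V was at 9.42, 9.41, 9.25 and 9.5 in the same controls. Only for complex IV in brainstem and complex II in olfactory bulb did the 3 libraries labelled knockout lie apart from the 3 controls: 7.55 to 7.85 against 7.95 to 8.20 for complex IV, and 9.61 to 9.65 against 9.33 to 9.56 for complex II. These means weigh each gene equally, and the complex IV mean takes in the 5 low-level genes Cox4i2, Cox7a1, Cox8b, Cox7b2 and Cox6b2.

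**Figure D1:**
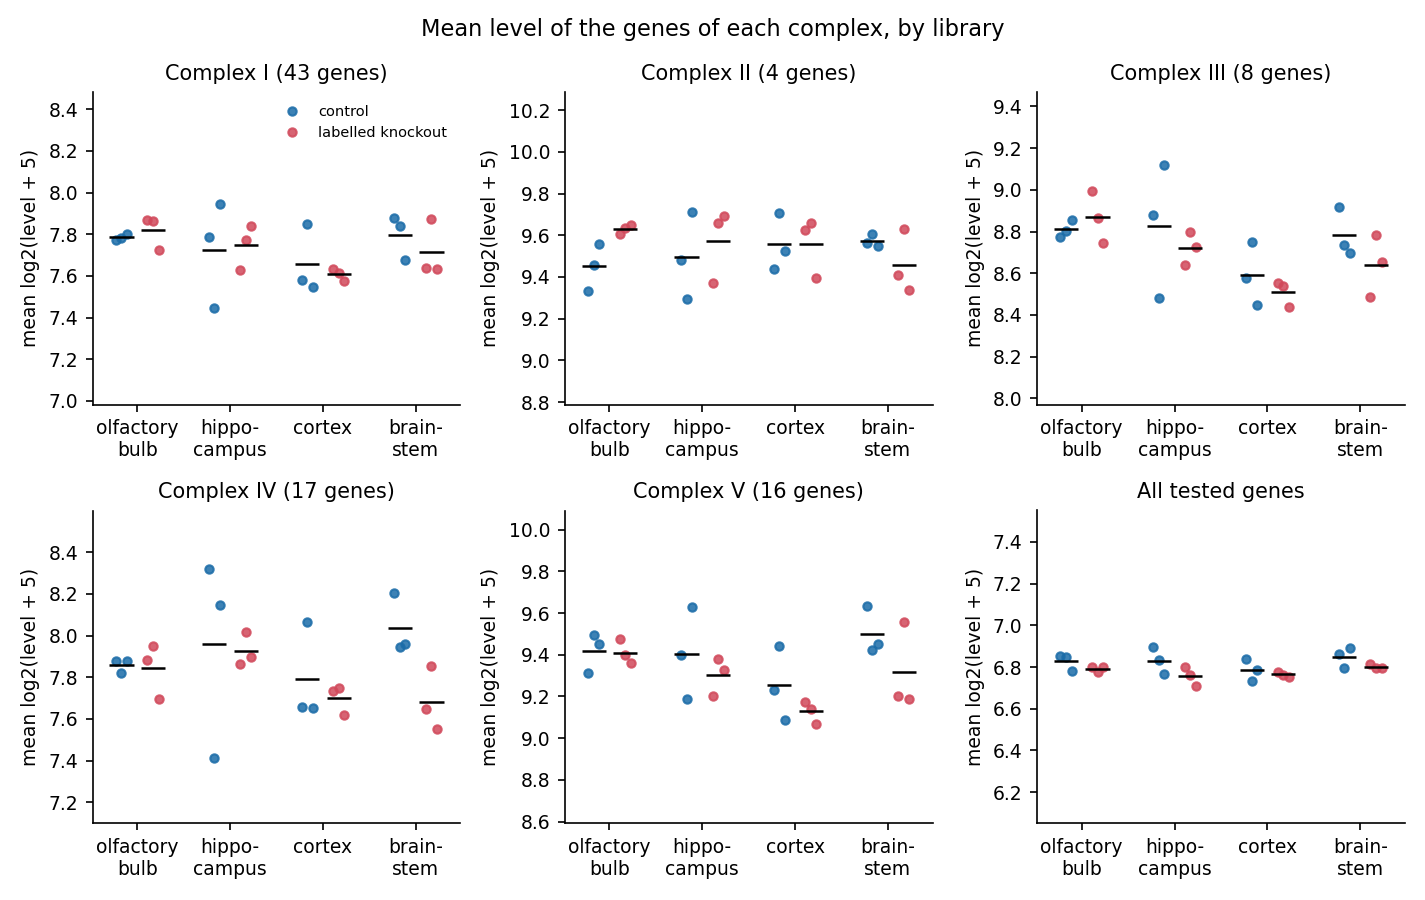
Mean of log2(level + 5) over the tested genes of each complex, 1 point per library, with bars at the group mean of 3 libraries, for control and labelled knockout in 4 regions. Every panel spans the same number of log2 units, and the spread among hippocampal controls, where complex IV runs from 7.41 to 8.32, is as wide as any difference between groups.

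Whether loss of Nfia alters these genes in each region was asked by comparing the 3 libraries labelled knockout with the 3 controls. In hippocampus 2 genes were lower in the libraries labelled knockout, Cox8b and Atp5g1, and none was higher. Cox8b encodes the heart and skeletal muscle form of subunit VIII of cytochrome c oxidase, and Cox8a the form found in most tissues. Atp5g1, Atp5g2 and Atp5g3 encode the same mature c subunit, which builds the rotating Fo ring, behind different import sequences. The promoters of both changed genes and of Cox8a are shown to set beside their levels (RefSeq, GRCm38.p6, minus strand, printed 5′ to 3′). In mm10 coordinates of GENCODE vM21 the Cox8b gene is chr7:140898945-140900446 and the Atp5g1 gene chr11:96068852-96075670. The promoter window, which ends at the base before the start site, is for Cox8b chr7:140900447-140900696, for Cox8a chr19:7217617-7217866 and for Atp5g1 chr11:96075632-96075881. Of the Atp5g1 window, the last 39 bases lie in an exon of a GENCODE transcript and are left out, so chr11:96075671-96075881 is printed. Capitals mark a nuclear factor I half-site in Cox8b, TTGGCA on the other strand, which starts 41 bases before the start site.
Cox8b: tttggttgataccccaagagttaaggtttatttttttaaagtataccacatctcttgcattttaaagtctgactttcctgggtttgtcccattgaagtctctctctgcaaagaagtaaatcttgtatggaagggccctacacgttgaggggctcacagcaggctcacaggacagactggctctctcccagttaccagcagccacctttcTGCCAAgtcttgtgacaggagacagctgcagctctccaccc
Cox8a: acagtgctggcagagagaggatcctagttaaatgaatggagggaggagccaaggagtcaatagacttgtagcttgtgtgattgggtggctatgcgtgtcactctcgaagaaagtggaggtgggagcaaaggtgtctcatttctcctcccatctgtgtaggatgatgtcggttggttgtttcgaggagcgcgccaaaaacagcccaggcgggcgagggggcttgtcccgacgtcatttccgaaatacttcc
Atp5g1: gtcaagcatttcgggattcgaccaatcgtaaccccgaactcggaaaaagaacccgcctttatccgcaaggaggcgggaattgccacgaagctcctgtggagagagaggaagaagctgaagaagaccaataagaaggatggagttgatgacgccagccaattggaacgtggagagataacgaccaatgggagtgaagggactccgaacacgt
Of the 250 bases, the Cox8b window holds 1 CpG dinucleotide and the Cox8a window 11. Those of Atp5g1 and its paralog Atp5g2 hold 15 and 19. A match is a description of the letters and not a bound site.

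Cox8b stood at 54.6, 18.5 and 50.4 normalised reads in the hippocampal controls and at 2.92, 2.22 and 0 in hippocampus labelled knockout. The groups did not overlap, and the lowest control lay well above the highest library labelled knockout. The log2 fold change on the scale of log2(level + 5) was -2.70 ± 0.55 (SE), with an adjusted p of 0.00632 in limma, and of 0.00905 without the filter. It rests on 242 reads in the controls and 18 in the other group. Cox8a, read in the same libraries, stood at 2402, 1208 and 2053 in controls and 1786, 2256 and 2098 in those labelled knockout, which overlap fully (log2 fold change 0.17 ± 0.18, SE). Cox8b thus made up 2.04% ± 0.47 (SD, n = 3) of the reads of the Cox8 family in hippocampal controls and 0.09% ± 0.08 in those labelled knockout.

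Atp5g1 stood at 764, 460 and 736 in hippocampal controls and at 326, 326 and 366 in those labelled knockout, again without overlap. Its log2 fold change was -0.90 ± 0.22 (SE, limma adjusted p = 0.0220), a call lost without the filter (0.0581). Its paralogs did not pass the test, with log2 fold changes of 0.06 ± 0.17 for Atp5g2 and 0.04 ± 0.20 for Atp5g3. The share of Atp5g1 among reads of the c subunit family was 37.3% ± 6.72 (SD, n = 3) in controls and 23.4% ± 0.31 in the other group. Of the 50-base words of Atp5g1 and Atp5g2, 11.1% and 38.3% also occur in other annotated genes, mainly pseudogenes, so part of their reads is uncertain.

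The 2 calls among 88 tested members (2.27%) stand beside 2.51% of all 12673 genes, of which 1.79% were lower and 0.718% higher. The share among the members is thus close to that of all genes. Among cell markers, 6 of the 10 choroid plexus markers and 2 of 4 tested ependymal markers were lower in the same comparison. Ttr, the most abundant, stood at 134180, 66523 and 125870 in the hippocampal controls and at 2571, 5636 and 2002 in those labelled knockout. Neither gene was called when the choroid plexus level entered the fit as a covariate, which was tried once the data were known: Cox8b was at -1.47 (limma adjusted p = 0.758) and Atp5g1 at -0.29 (0.882). With that covariate the calls among all genes went from 318 to 6, so the loss is not particular to these 2 genes. The choroid plexus level did not itself overlap between genotypes in hippocampus. Its mean log2 was 10.3 to 11.4 in controls and 5.93 to 7.02 in those labelled knockout. In that region the fit can thus hardly separate it from genotype, and lost calls were to be looked for with or without a genotype effect. In bulk RNA, fewer cells of a type and less RNA per cell cannot be told apart. Without hippocampal control 1 the count was 0, and without control 2 it was 3. Leaving out control 3 or any library labelled knockout left 1 call, Cox8b.

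**Figure D2:**
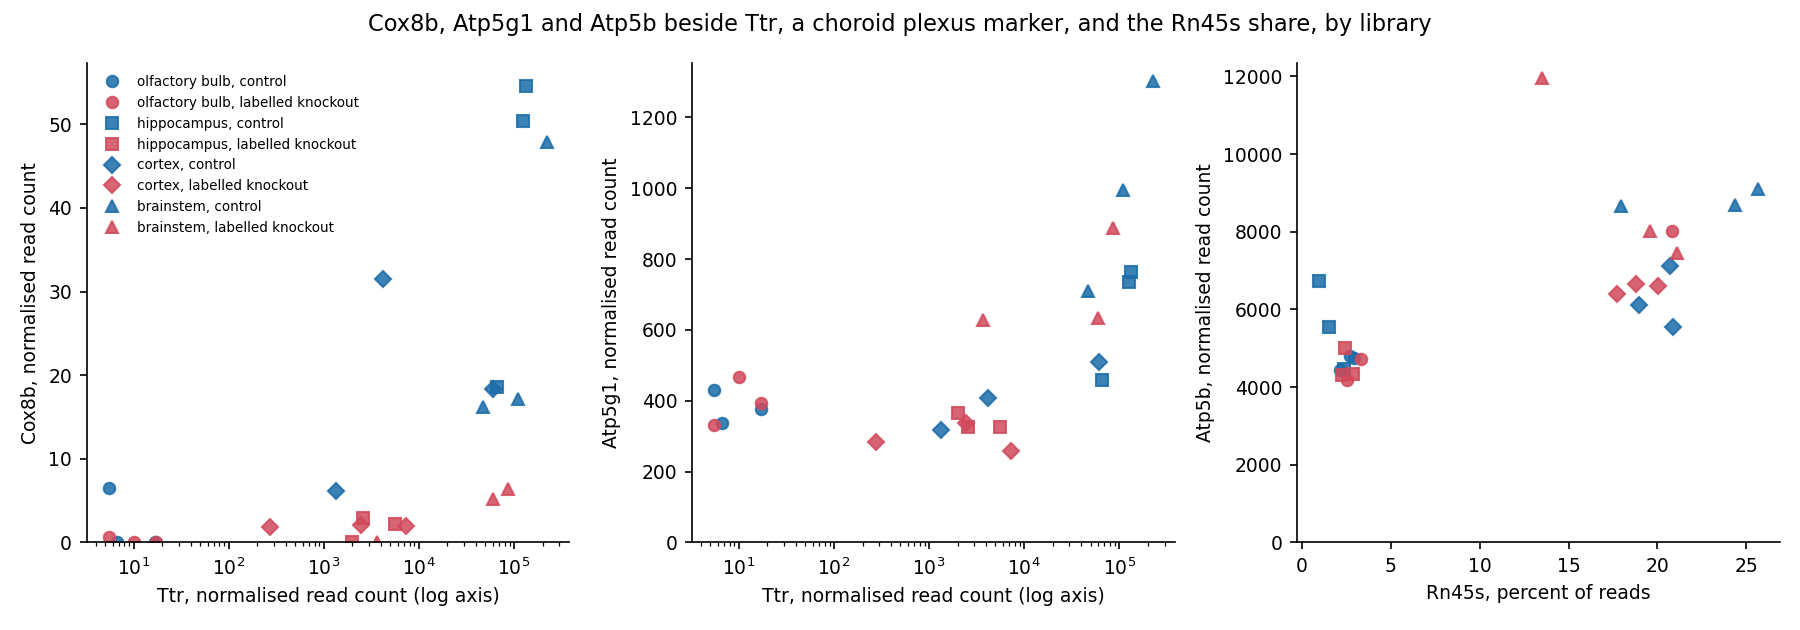
Levels of Cox8b and Atp5g1 against Ttr, a choroid plexus marker (log axis), and of Atp5b against the percent of reads in Rn45s, 1 point per library. The highest Cox8b and Atp5g1 levels are in hippocampal and brainstem controls with Ttr at 46844 or more, and cortex control 2 has Cox8b at 31.5 with Ttr at 4216.

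In the other 3 regions no member passed the threshold. In brainstem the 5 smallest p-values belonged to Cox6b2, Cox7a1, Cox8b, Ndufaf4 and Ndufa1. Cox6b2, the testis form of subunit VIb, stood at 160, 85.0 and 92.2 in brainstem controls and at 33.4, 46.5 and 22.9 in those labelled knockout (log2 fold change -1.57 ± 0.42, SE, limma adjusted p = 0.0659). Cox7a1, the heart and muscle form of subunit VIIa, stood at 36.2, 34.4 and 42.9 against 18, 4.81 and 5.72 (-1.67 ± 0.50, adjusted p = 0.0999). Cox8b stood at 47.9, 16.2 and 17.1 against 5.14, 6.41 and 0 (-1.81 ± 0.55, adjusted p = 0.107). None of these groups overlapped, and in brainstem 5.65% of all tested genes were likewise lower without overlap and 5.42% higher. Ndufaf4, a complex I assembly factor, stood at 213, 217 and 161 in controls and 257, 309 and 303 in those labelled knockout (0.55 ± 0.17, adjusted p = 0.114). Ndufa1, a small accessory subunit of the membrane arm of complex I, had a log2 fold change of -0.76 ± 0.27 (adjusted p = 0.183). In brainstem 9 of 88 members had an unadjusted p under 0.05, and 0.773% of all genes were called. Without brainstem control 2, the control with the lowest Ttr, 3 members were called, and without library 2 labelled knockout 1 was.

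In olfactory bulb the smallest p-values were those of Ndufaf4 (log2 fold change 0.40 ± 0.17, SE), Ndufs4 (0.47 ± 0.21), Cox6b2 (-0.93 ± 0.42), the core subunit Ndufs1 (0.34 ± 0.16) and Cox4i2 (1.10 ± 0.61), with limma adjusted p from 0.872 to 1. Cox4i2, a form of subunit IV known from lung, stood at 2.20, 0 and 2.73 in controls and 7.12, 24.9 and 2.5 in those labelled knockout, so 1 library carried most of that difference. In this region 0.0868% of all genes and 4 members at an unadjusted p under 0.05 stand beside the count of 0.

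In cortex they were Cox8b (-1.45 ± 0.55), the core subunit Ndufv1, which binds flavin (0.49 ± 0.20), Ndufb8 (-0.43 ± 0.19), the stalk subunit Atp5f1 (-0.31 ± 0.14) and Atp5g1 (-0.46 ± 0.22), with adjusted p from 0.577 to 0.856. Cox8b in cortex stood at 18.4, 31.5 and 6.19 in controls and 2.10, 1.93 and 1.82 in those labelled knockout, which do not overlap. In all, 6 members had an unadjusted p under 0.05 in cortex, and 0.324% of all genes were called. edgeR, DESeq2 and voom also called 0 members in olfactory bulb, cortex and brainstem.

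Seen by complex, median genotype differences were small, and in brainstem all 5 were below 0. The median log2 fold change of complex I was 0.00 for olfactory bulb, 0.05 for hippocampus, -0.08 for cortex and -0.08 for brainstem. Its 7 core subunits, which belong to the arm that takes electrons from NADH to ubiquinone, had no call in any region, with medians of 0.17, 0.01, 0.13 and -0.02. Complex II had medians of 0.18, 0.14, -0.01 and -0.15, and complex III 0.07, -0.10, -0.11 and -0.15. Complex IV had -0.05, 0.03, -0.04 and -0.09, and complex V 0.01, 0.02, -0.13 and -0.23, beside -0.01, 0.00, 0.00 and -0.01 for all genes. The hippocampal medians depended on control 2, which stood low for every complex. Without it complex I was at -0.11, complex III at -0.34 and complex V at -0.13. With the choroid plexus level as a covariate the brainstem median of complex V was -0.07. In complex V the F1 subunits had 0.01 and the Fo and stalk subunits -0.25 in brainstem. There 29 of the 88 members had a log2 fold change above 0. Libraries labelled knockout lay wholly below the controls for 15 members in brainstem and wholly above for 2, beside the 5.65% and 5.42% of all genes. In cortex 12 lay below and 2 above (7.48% and 7.06% of all genes), in hippocampus 6 and 3 (10.4% and 9.73%) and in olfactory bulb 3 and 8 (6.92% and 7.15%). These counts are descriptions and were not tested. For most members the size of a change was bounded: the 95% interval of the log2 fold change lay within 1 of 0 for 80 of 88 members in olfactory bulb, 78 in cortex, 76 in hippocampus and 74 in brainstem. Smaller changes can be within the error: in brainstem, for example, the interval of Ndufs4 ran from -0.31 to 0.57.

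Averaged over the 4 regions, Cox8b and Atp5g1 were lower in the libraries labelled knockout. The mean of the 4 log2 fold changes was -1.58 ± 0.27 (SE, limma adjusted p = 0.000585) for Cox8b and -0.44 ± 0.11 (0.0136) for Atp5g1. Without the filter the adjusted p was 0.000947 and 0.0376. Next in order came Ndufa1 (-0.42 ± 0.14, adjusted p = 0.0668), Ndufaf4 (0.25 ± 0.085, 0.0783) and Cox4i2 (0.88 ± 0.31, 0.0891). The 2 calls (2.27%) stand beside 5.88% of all genes. As for cell markers, 7 of 10 choroid plexus markers were also lower on average, and with their level as a covariate 0 members were called, while the calls among all 12673 genes went from 745 to 87. In hippocampus that level differed by genotype without overlap, so the limit of the covariate given above holds here too. Both genes stayed past the threshold whichever of the 24 libraries was left out. With hippocampus left out of the average neither was called, and Ndufaf4 was. The F test for a difference of the genotype effect among regions called 0 members (5 at an unadjusted p under 0.05, smallest adjusted p 0.522 for Cox6b2) beside 0.0552% of all genes, so a genotype effect that differs by region was not shown for any member.

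**Figure D3:**
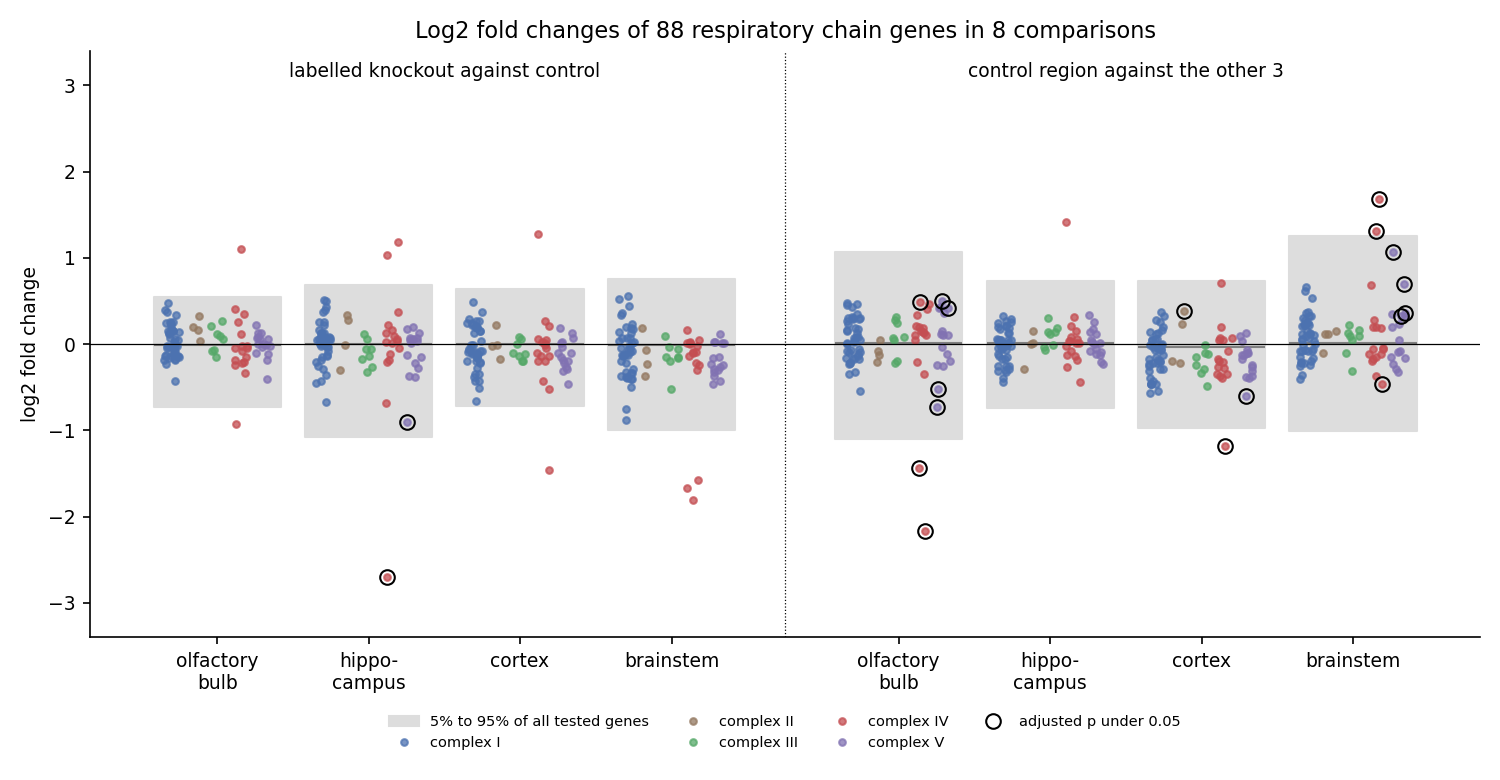
Log2 fold change of each of the 88 tested members in 8 comparisons, coloured by complex, with circles around those with an adjusted p under 0.05. Grey boxes span the middle 90% of all tested genes, and most members lie well inside them, apart from a few genes of complexes IV and V.

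How the respiratory chain genes differ among astrocytes of the 4 regions was asked in the control libraries, where a region was set against the average of the 3 others. These 4 comparisons share libraries. Brainstem controls were higher in 4 subunits of the ATP synthase and in 2 restricted forms of cytochrome c oxidase subunits, and lower in Cox8a. Atp5g1 stood at 1302, 710 and 997 in brainstem controls, against 319 to 764 in the other 9 controls, among which the 2 highest exceed the lowest brainstem library. Its log2 fold change was 1.07 ± 0.18 (SE, limma adjusted p = 6.51e-05). Atp5b stood at 9090, 8669 and 8686 in brainstem and at 4437 to 7131 in the other controls, with no overlap (0.70 ± 0.16, adjusted p = 0.00186). Atp5f1, a stalk subunit (0.36 ± 0.11, 0.0258), and Atp5a1, the alpha subunit (0.33 ± 0.11, 0.0432), were higher by less. The call of Atp5f1 was lost without brainstem control 2 (0.0771) or control 3 (0.0845). That of Atp5a1 was kept in 3 of 12 fits that left out 1 control, with adjusted p of up to 0.195, and was lost in edgeR (0.0578) and with the TMM scale (0.114). Atp5a1 stood at 3710, 3228 and 3331 in brainstem, where 1 cortical control (3280) lies within that range.

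Cox7a1 was higher in brainstem controls by 1.68 ± 0.41 (adjusted p = 0.00407, and 0.00266 without the filter), with every brainstem control (34.4 to 42.9) above every other control (1.61 to 26.3). Cox6b2 was higher by 1.31 ± 0.34 (adjusted p = 0.00698). It stood at 85.0 to 160 in brainstem, where hippocampal controls 1 and 3 reached 94.6 and 87.1. Cox8a was lower, at 1371, 1253 and 1031 (-0.46 ± 0.15, adjusted p = 0.0276), a call lost without brainstem control 3 (0.211). The 7 calls among 88 members (7.95%) lie below the 17.6% of all genes called in brainstem, where 8.26% were higher and 9.34% lower.

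Olfactory bulb controls were lower in 4 members and higher in 3. Cox8b stood at 0, 0 and 6.55 there (-2.17 ± 0.45, limma adjusted p = 0.00103), Cox7a1 at 3.31, 1.61 and 6 (-1.44 ± 0.41, 0.0161), Atp5g1 at 338, 376 and 429 (-0.73 ± 0.18, 0.00489) and Atp5b at 4738, 4437 and 4812 (-0.53 ± 0.16, 0.0216). For Cox8b, olfactory bulb control 3 overlapped cortex control 3 at 6.19. Higher in olfactory bulb were Cox4i1, the common form of subunit IV, at 1299, 1412 and 1162 (0.48 ± 0.13, 0.0109), Atp5g2 at 386, 418 and 388 (0.42 ± 0.14, 0.0357) and Atp5j2, the f subunit of Fo (0.50 ± 0.17, 0.0498). Atp5g1 and Atp5g2, whose mature proteins are the same, thus went opposite ways in this region. The 7 calls (7.95%) stand beside 14.2% of all genes, 7.54% higher and 6.64% lower. Without the filter on low values 6 of the 7 stayed called, among them all 4 that were lower, beside 1802 of 19288 genes. Without olfactory bulb control 1 or control 2 the count was 2, without control 3 it was 4, and Cox8b and Atp5g1 stayed called whichever of the 12 controls was left out.

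Cortical controls were higher in Sdha and lower in Cox6b2 and Atp5g1. Sdha, the flavoprotein subunit of complex II that oxidises succinate, stood at 2268, 2888 and 2609 in cortex, at 1602 to 2114 in olfactory bulb, 1675 to 1972 in hippocampus and 2128 to 2375 in brainstem, which takes in the lowest cortical library (0.39 ± 0.11, limma adjusted p = 0.0366). Cox6b2 stood at 29.2, 18.9 and 30.9 (-1.18 ± 0.34, 0.0319), and Atp5g1 at 508, 408 and 319 (-0.60 ± 0.18, 0.0347). These 3 calls (3.41%) stand beside 6.83% of all genes, 4.19% higher and 2.63% lower. The count ranged from 0 without hippocampal control 1 or cortex control 3 to 6 without hippocampal control 2. Hippocampal controls had 0 calls in limma, edgeR and DESeq2 and 1 in voom, with 6 members at an unadjusted p under 0.05, beside 2.86% of all genes. Among the smallest p-values were those of Cox8b (1.42 ± 0.45, adjusted p = 0.0907), Sdha (-0.29 ± 0.11, 0.224), Ndufb3 (-0.40 ± 0.17, 0.283) and Cox8a (0.32 ± 0.15, 0.327).

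**Figure D4:**
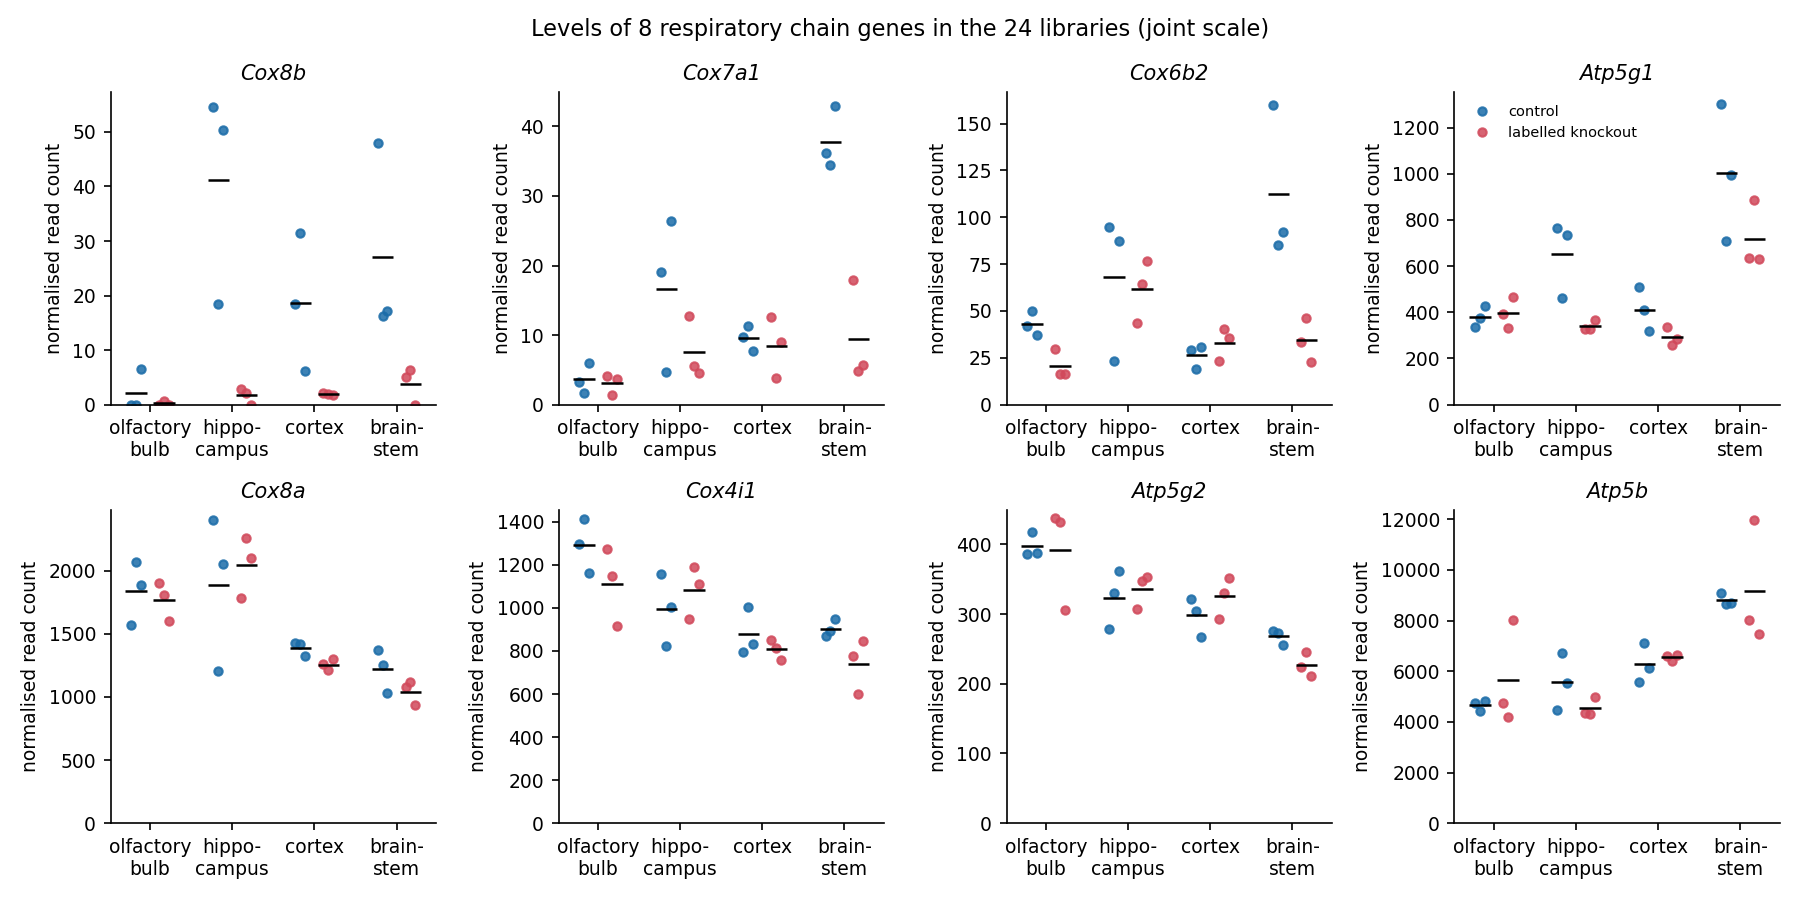
Normalised read counts of 8 members in each of the 24 libraries, with bars at the group mean of 3. Cox8b is at 6.41 or less in every library labelled knockout, and Cox7a1 is highest in the 3 brainstem controls. Atp5b is higher in brainstem than in the average of the other 3 regions in both genotypes, though olfactory bulb labelled knockout 3 is also high.

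Across the 4 control regions at once, 10 of 88 members (11.4%) differed in the F test, beside 23.5% of all genes. In order of p they were Atp5g1, Cox8b, Atp5b, Cox7a1, Cox6b2, Ndufb11, Sdha, Cox8a, Cox4i1 and Atp5o. By complex they were 1 of 43 tested genes in complex I, 1 of 4 in complex II, 0 of 8 in complex III, 5 of 17 in complex IV and 3 of 16 in complex V. Cox8b and Cox7a1 are among the 5. Without the filter on low values 13 members were called, which takes in all 10, beside 3005 of 19288 genes. The largest span between the highest and the lowest region was 2.69 on the log2 scale for Cox8b, followed by 2.34 for Cox7a1, 1.87 for Cox6b2 and 1.35 for Atp5g1. Atp5b spanned 0.92. Beside these calls, medians of whole complexes were small: in cortex -0.07, 0.02, -0.20, -0.19 and -0.15 for complexes I to V, with -0.03 for all genes, and in brainstem 0.07, 0.12, 0.09, -0.05 and 0.12, with 0.01 for all genes. Without cortex control 2 the cortical median of complex I was -0.22. With the choroid plexus level as a covariate, brainstem medians were -0.07, -0.07 and -0.10 for complexes I, III and V.

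Other measures moved with the regions. In brainstem controls 9 of 10 choroid plexus and 8 of 9 oligodendrocyte markers were higher and 5 of 10 astrocyte markers lower, and in olfactory bulb controls 9 and 8 of the same lists were lower. The summed oligodendrocyte level was 53227 to 91863 in brainstem controls and 9811 to 16390 in olfactory bulb controls. The part of oligodendrocyte RNA in the member differences was not tested. With the choroid plexus level as a covariate, the counts of 7, 3 and 7 in olfactory bulb, cortex and brainstem were all 0, and 6 members still passed the F test, 5 of them from the 10. Calls among all 12759 genes also went down, to 384 (before 1809) for olfactory bulb, 661 (before 871) for cortex, 692 (before 2246) for brainstem and 1650 (before 2992) for the F test. The choroid plexus level itself set olfactory bulb apart, with a mean log2 of 4.74 to 4.98 in its controls and 6.51 or more in every other control. For olfactory bulb the fit can thus hardly separate that level from region. Each region was then set against the one with a similar Rn45s share, a comparison chosen with the data in view. Cox8b (-2.69) and Atp5g1 (-0.74) stayed lower in olfactory bulb than in hippocampus. Atp5b, at -0.24 with an adjusted p of 0.555, did not pass. Against cortex, brainstem stayed higher in Atp5g1 (1.26), Cox6b2 (1.87) and Cox7a1 (1.55), while Atp5b was at 0.50 (adjusted p = 0.0804) and Cox8a at -0.20 (0.535). In olfactory bulb labelled knockout 3, the bulb library with an Rn45s share like that of cortex, Atp5b stood at 8012, beside 4734 and 4190 in the other 2.

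The same regional comparison in the libraries labelled knockout gave a partly different set. Brainstem had 11 calls, with Atp5g1 (1.05 ± 0.18, SE, limma adjusted p = 6.9e-05), Atp5b (0.72), Ndufa4 (0.53) and Atp5a1 (0.33) higher, and Cox8a (-0.67), Atp5g2 (-0.61), Ndufb11 (-0.61), Ndufc2 (-0.53), Cox4i1 (-0.42), Cox4i2 (-1.61) and Ndufa7 (-0.57) lower. Of these, 4 (Atp5g1, Atp5b, Atp5a1 and Cox8a) were among the 7 of the controls. Cox7a1 (0.32) and Cox6b2 (-0.05), both higher in control brainstem, did not pass. Cox4i2 had 2 reads in brainstem labelled knockout, against 45 in olfactory bulb, 104 in hippocampus and 69 in cortex. It thus entered the test only through groups where it is high. A result without the filter on low values is not given for it, so no conclusion is drawn from its call. Olfactory bulb had 2 calls, Ndufc2 (0.59) and Uqcr11, a small subunit of complex III (0.60). Hippocampus had 2, Cox8a (0.62) and Atp5b (-0.59), and cortex 1, Atp5g1 (-0.64), which was also lower in control cortex. Of all genes, 19% were called in brainstem, 11.4% in olfactory bulb, 5.3% in hippocampus and 4.72% in cortex. The F test among these 4 groups called 9 members beside 21.5% of all genes, 5 of them shared with the 10 of the controls.

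**Figure D5:**
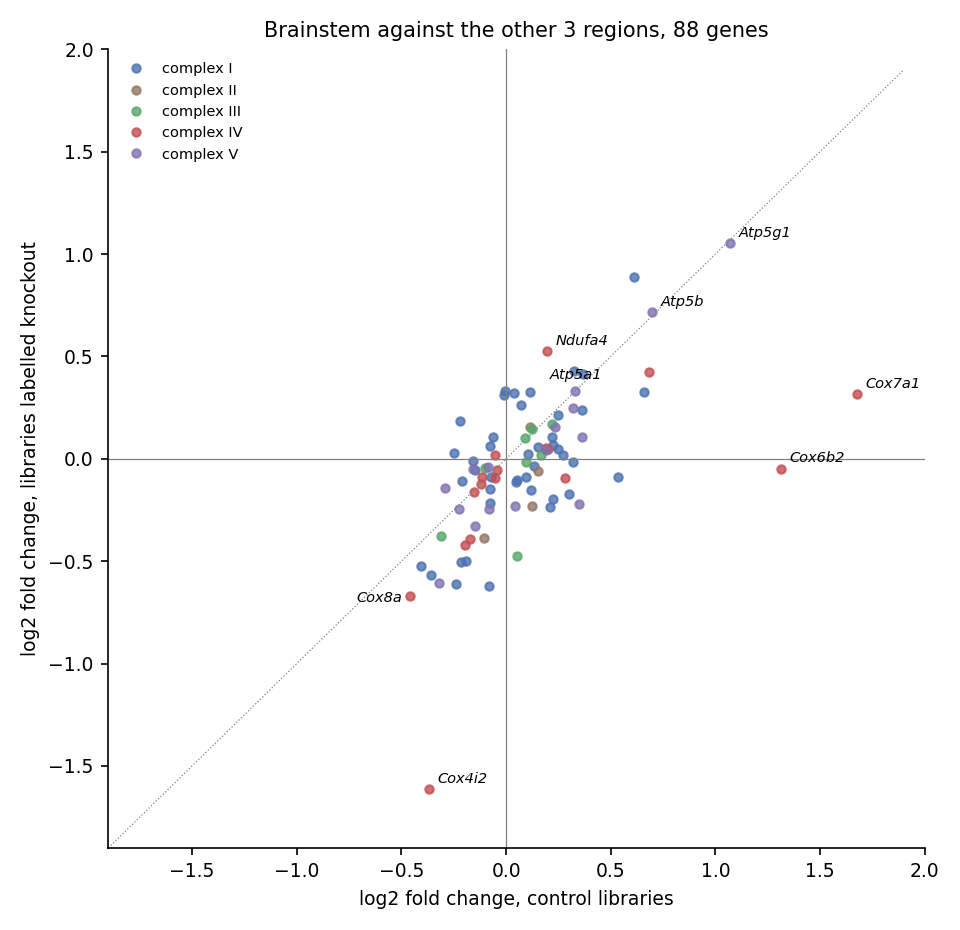
Log2 fold change of brainstem against the other 3 regions for the 88 tested members, in control libraries (horizontal) and in libraries labelled knockout (vertical), with 8 genes named. Atp5g1 and Atp5b lie on the diagonal, and Cox7a1 and Cox6b2 are high on the horizontal axis alone.

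Paralogs with restricted tissue use took small shares of their families. Cox8b never exceeded 3.38% of the reads of its family in a library, and Cox4i2 took at most 5.32% of Cox4 reads, in cortex labelled knockout 3, where the summed level of 7 endothelial and mural markers was 2837 beside 1114 and 3070 in the other 2. Cox7a1 took 9.12% ± 1.9 (SD, n = 3) of the reads of Cox7a1 and Cox7a2 in brainstem controls and 0.83% ± 0.59 in olfactory bulb controls. Cox6b2 took 20.3% ± 5.22 of Cox6b reads in brainstem controls, 8.63% ± 3.05 in brainstem labelled knockout and 6.61% ± 0.21 in olfactory bulb controls. In the c subunit family Atp5g1 took 24.2% ± 1.39 of reads in olfactory bulb controls and 47.1% ± 6.83 in brainstem controls, Atp5g2 25.4% ± 2.49 and 13% ± 2.09, and Atp5g3 50.4% ± 2.57 and 39.9% ± 4.99. These shares rest on 1560 and 2039 reads of Atp5g1 in the 2 groups.

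Genes around the respiratory chain were read from fixed lists. Of 8 tested complex I assembly factors outside the Nduf names, 4 complex II assembly factors and 6 further genes of complex V, 0 passed in any of these comparisons of genotype or control region. Of 16 complex IV assembly factors Coa5 was lower in control brainstem (-0.35). Among 7 further genes of complex III, control brainstem was higher in Uqcc1 (0.73) and lower in Uqcc2 (-0.94). Of 18 tricarboxylic acid cycle genes, Idh2, the mitochondrial NADP-dependent isocitrate dehydrogenase, was lower on average in libraries labelled knockout (-0.64 ± 0.11, SE, limma adjusted p = 0.000721), and lower in olfactory bulb controls (-1.24) but higher in those of hippocampus (0.65) and cortex (0.77). Suclg2, a subunit of succinyl-CoA ligase, was higher on average in libraries labelled knockout (0.38 ± 0.083, 0.00479), also in brainstem alone (0.66), higher in olfactory bulb controls (0.82) and lower in those of hippocampus (-0.61). Brainstem controls were higher in Ogdh (0.63) and Idh3a (0.47), cortical controls in Pdha1 (0.52) and Dlat (0.46), and olfactory bulb controls in Pcx (0.64). Of 16 electron carrier and coenzyme Q genes, Gpd2 was higher in olfactory bulb controls (0.61) and lower in hippocampal controls (-0.70). Among 19 genes of the outer membrane, import and nucleotide exchange, the ADP/ATP carrier Slc25a4 was lower in olfactory bulb (-0.49) and higher in cortex (0.54). Mfn1 was higher in olfactory bulb (0.62), Slc25a5 higher in brainstem (0.39) and Vdac3 lower in cortex (-0.54). Of 18 regulators, Mterf4 was lower on average in libraries labelled knockout (-0.64) and Gabpa lower in brainstem controls (-0.38). Gabpa overlaps Atp5j, and whether counting used strand is not given in the sources used here. Of 77 mitochondrial ribosomal proteins 1 was higher on average in libraries labelled knockout, 2 were higher and 1 lower in olfactory bulb, and 1 higher and 2 lower in brainstem. Beside all these counts, 5.88% of all tested genes were called by genotype on average and 0.773% by genotype in brainstem. In control olfactory bulb, hippocampus, cortex and brainstem the shares were 14.2%, 2.86%, 6.83% and 17.6%. The calls named here are therefore no result about their lists.

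The promoters of the members held the letters of the NRF1 and GABP motifs, 2 regulators of mitochondrial genes, in a larger share than promoters at large. A window of 250 bases before the start site was found in the RefSeq table for 76 of the 92. The NRF1 motif CGCANGCG, on either strand, was in 18 of the 76 (23.7%) and in 6.94% of 27025 promoters, and the GABP motif CCGGAAG in 12 (15.8%) and 7.11%. The ERR motif AAGGTCA was in 5 (6.58%) and 4.04%, the YY1 motif AAGATGGCG in 0 and 0.596%, and the nuclear factor I half-site TTGGCA in 15 (19.7%) and 12.5%. By complex the NRF1 motif was in 11 of 39 windows of complex I, 2 of 3 of complex II, 0 of 5 of complex III, 1 of 14 of complex IV and 4 of 15 of complex V. The windows are also richer in G and C (median 56.4%, against 52% of all) and in CpG (median 14.5, against 6), and motif shares were not adjusted for that. Cox8b, Cox8a and Atp5g1 have no NRF1 motif in the 250 bases, and Atp5g2 has 1, which starts 41 bases before its start site.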

How the data were processed

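Astrocyte RNA was sequenced in 24 libraries, 3 per group. Per the labels' protocols, sorted cells gave 5 ng of total RNA per library for the NuGEN Trio kit. Each library has 1 deposited table of normalised signal. Per the submitters' processing notes, FastQC, STAR 2.5.0a, DESeq2 1.20.0 and mm10 were used, and the counting tool, annotation and strand use are not given in the sources used here. Each library's values were whole reads over a common factor, within 0.01 read, so reads were recovered. Cortex was on its own scale, so regions were compared after joint rescaling, on which levels are printed, and genotypes on the deposited scale. Genes at 20 or more in 3 libraries were tested in limma 3.58.1 (R 4.3.3) on log2(value + 5), with an intensity trend, robust moderation, 1 mean per group, 16 residual degrees of freedom and Benjamini-Hochberg adjustment over all genes, two-sided, at 0.05. Adding 5 shrinks fold changes of low genes. The F tests used the same fit. Tests were checked on simulated independent counts with the same dispersion for all genes, a check that does not cover mixed cell types or shared animals. Alternatives were edgeR 4.0.16, DESeq2 1.42.0 and voom on recovered reads, other constants and filters, and each library left out. Members, lists and the rule for named genes (those called, otherwise the 5 smallest p, the paralog pairs and up to 4 genes of each list) were chosen with earlier results of these data known.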

Additional observations from a re-analysis of the deposited data

Results flagged for a closer look

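Ndufaf4, an assembly factor of complex I, had libraries labelled knockout that lay on opposite sides of the controls in different regions. Its log2 fold change was 0.40 in olfactory bulb, 0.20 in cortex and 0.55 in brainstem, where every library labelled knockout was above every control, and -0.14 in hippocampus, where every one was below. Ndufb3, an accessory subunit of complex I, went up in hippocampus (0.39) and down in cortex (-0.43) and brainstem (-0.40) in the same way. Groups without such overlap are common: of all tested genes, 9.73% were wholly higher and 10.4% wholly lower in hippocampus, and 5.42% to 7.48% in either direction in each other region. The F test of a difference among regions did not pass for either, with limma adjusted p of 0.644 for Ndufaf4 and 0.585 for Ndufb3.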

How the results depend on the processing

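The counts of members called in each comparison were recomputed under other settings. Genotype in hippocampus, 2 calls, gave 1 without a low-value filter, 1 with a filter of 50 in 6 libraries, 1 with voom and 0 with the choroid plexus covariate. Genotype on average, 2 calls, gave 1 with the filter of 50, 5 with DESeq2, 0 with the covariate and 1 with hippocampus left out. Genotype in brainstem, 0 calls, gave 2 with a constant of 20. Control olfactory bulb, 7 calls, gave 11 with voom, 2 with libraries labelled knockout, 2 with an absolute log2 fold change above 1, 0 with the covariate and 2 against the region of similar Rn45s share. Control hippocampus, 0 calls, gave 1 with voom, 2 with libraries labelled knockout and 2 against the region of similar Rn45s share. Control cortex, 3 calls, gave 1 without a filter, 1 with libraries labelled knockout, 1 with the fold threshold and 0 with the covariate. Control brainstem, 7 calls, gave 11 with libraries labelled knockout, 3 with the fold threshold, 0 with the covariate and 4 against the region of similar Rn45s share. The F test among control regions, 10 calls, gave 6 with the covariate. The cause was not tested. Leaving out 1 library gave 0 to 3 in hippocampus and in brainstem, 0 to 0 in olfactory bulb, in cortex and for the difference among regions, and 2 to 5 on average. For control regions it gave 2 to 10 in olfactory bulb, 0 to 1 in hippocampus, 0 to 6 in cortex, 5 to 8 in brainstem and 6 to 13 in the F test, lowest without olfactory bulb control 2 or cortex control 3. Atp5g1, Atp5b and Cox7a1 in brainstem stayed called in 12 of 12 such fits.

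Of 1464 single-gene values under alternatives, 1273 stayed on the same side of the threshold in the same direction, 165 lost the call, 21 gained one and 5 reversed. These values include members that were not called at first, so the share kept is lower among calls. Calls differed: Atp5j2 in olfactory bulb was kept in 4 of 14 other settings and 4 of 12 fits without 1 control. Atp5g1 in brainstem was kept in 13 of 14 and 12 of 12. With libraries labelled knockout, Cox8b and Ndufb3 in hippocampus were at -0.026 and 0.24, and Cox6b2 in brainstem at -0.048. Ndufa1 in hippocampus by genotype was at 0.16 with the covariate, and Cox8a in hippocampus at -0.013 against olfactory bulb. Whether same-numbered libraries share an animal or a preparation is not known, and their correlations were mixed. Of 12 correlations of deviations between same-numbered control and labelled knockout libraries, 5 were over 0.1 (median 0.063, highest 0.32). Between regions of a genotype 10 of 36 were over 0.1 (median 0.0078, highest 0.32), 5 of them among the 6 pairs of controls numbered 1. With a replicate block the counts by genotype were 0, 2, 0, 0 and 2 and for control regions 6, 0, 3 and 7, with Atp5j2 in olfactory bulb lost (adjusted p = 0.0572). The depth of brainstem labelled knockout 3, 1090777 reads, limits low members there.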
